A study of Mus musculus with 14 samples.

Results

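The Id genes (inhibitors of DNA binding) are *Id1*, *Id2*, *Id3* and *Id4*. They were chosen by name as genes of the response to bone morphogenetic proteins (BMPs). They are 4 of the 28316 genes counted in the retina and 4 of the 26528 genes counted in the brain, and all 4 are in both tables.

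Id proteins have the helix-loop-helix domain of a large family of transcription factors but lack the basic region that binds DNA. They pair with E proteins (the products of *Tcf3*, *Tcf4* and *Tcf12*) and keep them from binding DNA, and they are known for holding back differentiation in many lineages. *Id1*, *Id2* and *Id3* are classical direct targets of SMAD1, SMAD5 and SMAD9, which BMP receptors phosphorylate. In endothelial cells (ECs) the type I receptor ALK1 (*Acvrl1*), the type II receptor BMPR2 and the co-receptor endoglin carry this signal, and TGF-beta, through TGFBR2 and TGFBR1, signals mainly through other SMADs.

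The study deleted the TGF-beta type I receptor gene *Tgfbr1* in ECs after birth and profiled single nuclei with PIPseq, a droplet method that counts molecules by unique molecular identifiers (UMIs). Whole retinas gave 12 libraries, of which 1 is control and 11 are *Cdh5CreER;Tgfbr1 CKO/-* (CKO). Vascular fragments enriched from brain by Ficoll centrifugation gave 1 control and 1 CKO library, each from 2 pooled brains. The paper gives the age as P14, while the deposited description says young adult.

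CKO mice carry 1 conditional and 1 null allele of *Tgfbr1* and a *Cdh5* (VE-cadherin) promoter driving CreER, and received 4-hydroxytamoxifen (4HT) between P3 and P5. Recombination is therefore directed to ECs, and all other cells of these mice keep a single conditional allele. Controls are labeled wild type. The paper calls its controls phenotypically WT and gives *Cdh5CreER;Tgfbr1 CKO/+* as a typical genotype, but the alleles and 4HT treatment of the controls of these libraries are not stated. CPM below are UMIs of a gene per 1e6 UMIs of all genes, summed over the nuclei that carry 1 of the authors' cell type labels in 1 library.

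The brain control library held 16649 nuclei with 49798325 UMIs (median 1541 per nucleus), and the brain CKO library held 14675 nuclei with 31033373 UMIs (median 1395). The retina control library held 11513 nuclei with 30989702 UMIs. The CKO retina libraries held 104 (replicate 4) to 18862 (replicate 5) nuclei, with a median of 4210. By the authors' batches, the control and CKO replicates 1 to 3 formed batch 1, replicates 4 and 5 batch 2 and replicates 6 to 11 batch 3. CKO replicates 8 to 11 were made with PIPseq 5 and all other libraries with PIPseq 4PLUS. The brain libraries shared 2 cell barcodes, and pairs of retina libraries shared 0 to 2.

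*Xist*, the RNA of the inactive X chromosome, was at 1963 CPM in the brain control library and 1.29 CPM in the brain CKO library, so genotype and sex cannot be told apart there. Among retinas the control was at 6779 CPM, 4 CKO libraries were at 5577 to 6823 and 7 were at 0.365 to 12.9. The targeted gene *Tgfbr1* was at 69.1 CPM in control brain ECs and 62.9 CPM in CKO brain ECs, a ratio of 0.910 (0.792 to 1.05), or 0.847 (0.738 to 0.973) with TMM scaling. Counts of UMIs per gene do not show whether a transcript lacks a deleted exon, so they check neither the deletion nor its absence.

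In the control brain, *Id1* and *Id3* were genes of vascular nuclei and *Id4* of cluster CP_6 and astrocytes. *Id2* was highest in cluster Glut_20, astrocytes and cluster Glut_21. In CP_6 the ependymal gene *Foxj1* was highest, while the choroid plexus gene *Ttr* was at 2838 CPM, against 40364 CPM in cluster CP_8. Levels are compared only within a gene, between cell types. *Id1* was at 820 CPM (95% Poisson interval 796 to 843) in ECs and 468 (435 to 503) in vascular smooth muscle cells (vSMCs). Nuclei labeled glia came next at 76.8 CPM (64.3 to 91.0). These 3 levels were separate. Below them, cluster Glut_20 (36.1), pericytes (32.8, from 4 UMIs) and choroid plexus cluster CP_8 (23.8) had overlapping intervals, with that of pericytes reaching into that of glia. Cluster CP_6 was at 5.45 CPM. Astrocytes were at 3.67 CPM, but all 5 UMIs came from 1 of 942 nuclei. No *Id1* UMI was counted in the other 13 of the 21 labels. These are OPCs, oligodendrocytes, microglia and all clusters named GABA or Glut except Glut_20, which held markers of several cell types. At the depth of those labels a level of up to 46.2 CPM (microglia) could have been missed. ECs gave 83.2% of all *Id1* UMIs of the control library and 96.2% of those of the CKO library.

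*Id3* had nearly the same order. It was at 613 CPM (593 to 634) in ECs and 562 CPM in vSMCs, whose interval reached 601 and so met that of ECs. Pericytes (115, from 14 UMIs), glia (88.9), CP_8 (88.0) and Glut_20 (55.0) formed a lower tier with overlapping intervals. Astrocytes, at 42.6 CPM, overlapped with Glut_20, and CP_6 was at 11.2 CPM. No *Id3* UMI was counted in 10 labels of the control library.

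*Id2* was at 541 CPM (480 to 607) in Glut_20 and 457 (422 to 495) in astrocytes, which overlapped, then 273 (243 to 305) in Glut_21 and 138 (120 to 158) in vSMCs. ECs, at 50.7 CPM (45.0 to 56.8), overlapped with glia (66.4), CP_6 (42.7) and CP_8 (40.9). Of the labels of the control library, GABA_22 and oligodendrocytes had no *Id2* UMI, and microglia, Glut_17 and Glut_5 had 1 each.

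*Id4* was at 507 CPM (483 to 531) in CP_6, 206 (183 to 232) in astrocytes, 110 (83.6 to 142) in Glut_20 and 60.7 (51.0 to 71.7) in CP_8, all separate. CP_6 alone held 74.0% of the *Id4* UMIs of the control library and 72.4% of those of the CKO library. In ECs *Id4* was near 0, at 2.59 CPM from 15 UMIs. vSMCs were at 11.6 CPM (18 UMIs) and glia at 7.50 CPM (13 UMIs), and 4 labels of the control library had no *Id4* UMI. *Id1* and *Id4* had their highest levels in different types.

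**Figure D1:**
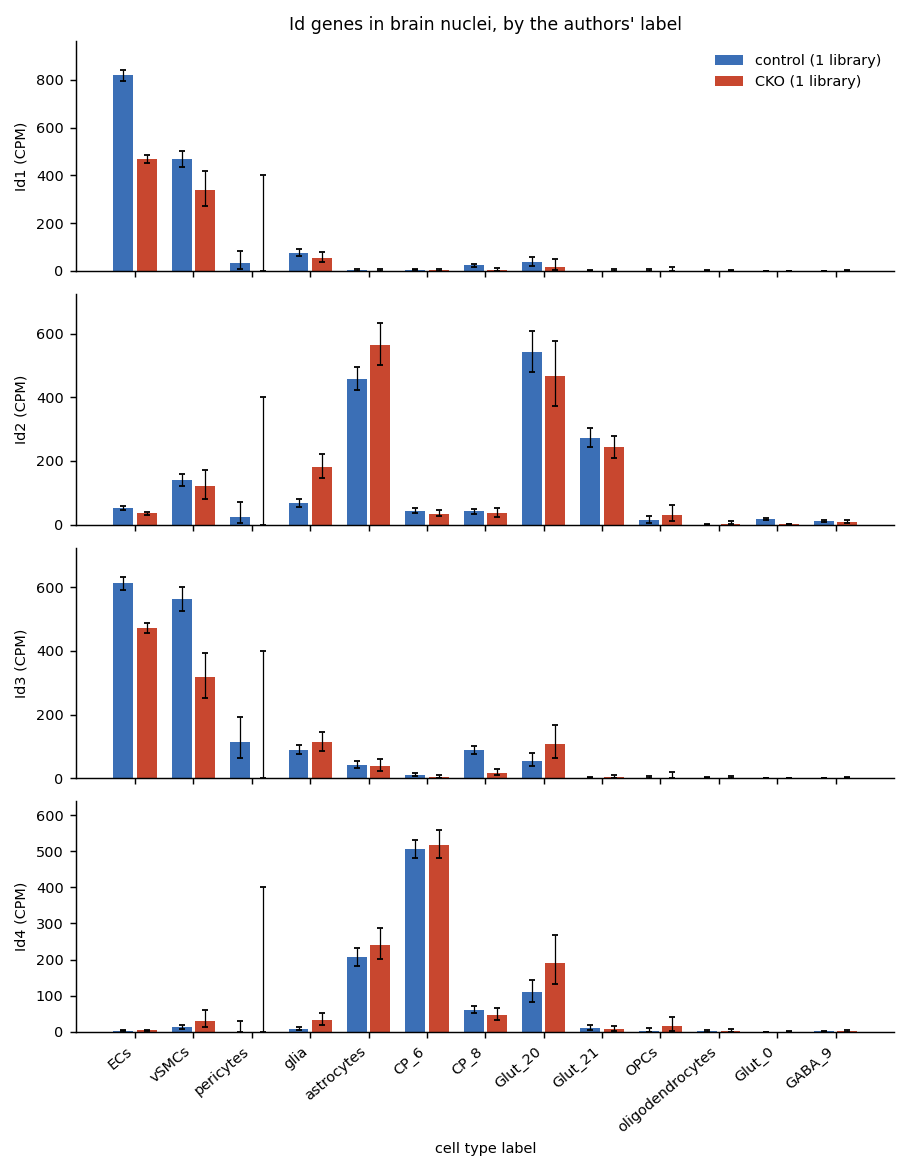
Level of each Id gene in CPM (vertical axis) in 13 of the 21 brain labels (horizontal axis), in the control library (blue) and the CKO library (red), with 1 library per genotype and black lines for exact 95% Poisson intervals. *Id1* and *Id3* stand highest in ECs and vSMCs, *Id2* in Glut_20 and astrocytes and *Id4* in CP_6; the CKO pericytes had no Id UMI and an upper limit of 400 CPM.

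The labels were checked against marker genes. The EC list (*Cldn5*, *Pecam1*, *Flt1*, *Cdh5*, *Erg*) was highest in nuclei labeled ECs for 5 of 5 genes in both libraries, summing to 8216 CPM in control and 6480 CPM in CKO. The pericyte list also summed to 8390 and 7127 CPM in these nuclei, led by *Rgs5*, second to nuclei labeled pericytes and with none of its 8 genes at 0. The vSMC list summed to 93.6 and 90.6 CPM in ECs, led by *Acta2*, with *Cnn1* at 0. In nuclei labeled glia, the fibroblast list was the highest of all labels, at 3774 CPM in control and 3896 CPM in CKO and led by *Col1a2*, while the astrocyte list was at 1237 and 725 CPM. Nuclei of Glut_20 held oligodendrocyte markers (5652 CPM in control), neuronal markers (4395) and astrocyte markers (2034). In nuclei labeled vSMCs the vSMC list was highest for 4 of 4 genes (4383 CPM in control and 3913 in CKO), but the pericyte list also summed to 6583 and 6278 CPM there and the EC list to 3408 and 3313 CPM. All cell type names here, ECs and vSMCs included, are the authors' labels, and RNA of other vascular cells in these nuclei was not separated.

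In brain ECs, *Id1* was lower in the CKO library than in the control library, *Id3* was lower by less, *Id2* was low in both, and *Id4* was barely detected. With 1 library per genotype no test was made, and intervals cover counting error only. The question was how the BMP response genes stand in ECs in which *Tgfbr1* was targeted. *Id1* was at 820 CPM in control (4755 UMIs in 2475 nuclei) and 469 CPM (453 to 486) in CKO (3215 UMIs in 2944 nuclei), a ratio of CKO over control of 0.572 (0.547 to 0.599). *Id3* was at 613 CPM in control and 471 (455 to 488) in CKO, a ratio of 0.768 (0.732 to 0.806). Both ratio intervals lay below 1. Of all 13154 genes with at least 20 UMIs in ECs, 19.0% had a ratio interval below 1 and 36.0% had one above.

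*Id2* was at 50.7 CPM in control ECs and 35.0 (30.7 to 39.8) in CKO ECs, a ratio of 0.691 (0.580 to 0.822). This direction did not hold when each nucleus was thinned to 500 UMIs, which left 30 and 43 UMIs and a ratio of 1.13 (0.696 to 1.87). *Id4* was at 2.59 and 3.36 CPM (15 and 23 UMIs), with a ratio of 1.30 (0.649 to 2.68), so no difference was detectable at this depth. Its ratio was 0.709 (0.291 to 1.68) in EC nuclei without a UMI of a vSMC marker, a setting chosen after seeing the data.

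None of the 3 Id genes with at least 50 UMIs in ECs passed 2-fold in either direction. Of all 11351 genes with that many UMIs in ECs, 9.45% were at least 2-fold higher in CKO and 3.9% at least 2-fold lower. The log2 ratios were −0.80 for *Id1*, −0.53 for *Id2* and −0.38 for *Id3*, against a median of 0.14 over all genes. A lower ratio than that of *Id1* was found for 6.14% of all genes, than that of *Id2* for 10.6% and than that of *Id3* for 15.4%. TMM scaling moved the median of all EC genes from 0.14 to 0.04, and *Id1* and *Id3* were below it under both scalings.

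*Id1* was lower in CKO ECs in each group of EC nuclei examined. In the 363 control and 133 CKO nuclei without a UMI of the 8 pericyte markers, the ratio was 0.387 (0.199 to 0.692) for *Id1*, from 99 and 13 UMIs, and 0.842 (0.469 to 1.44) for *Id3*. These nuclei were shallow (medians of 505 and 444 UMIs), and their *Id1*, at 440 and 170 CPM, was lower than the 835 and 473 CPM of nuclei with a pericyte marker. Among nuclei without a UMI of 5 cycling markers (*Top2a*, *Mki67*, *Kif11*, *Aspm*, *Cenpf*), *Id1* was at 882 CPM in 2181 control nuclei and 525 CPM in 2039 CKO nuclei. With a cycling marker, it was at 585 CPM in 294 control nuclei and 400 CPM in 905 CKO nuclei. Nuclei with a cycling marker thus had less *Id1* in both libraries, and they were deeper (medians of 2880.5 and 2537 UMIs, against 1236 and 1222 without). In EC nuclei with at least 1000 UMIs, *Id1* was at 787 and 450 CPM, against 820 and 469 CPM over all EC nuclei. The part of depth in this was not tested. *Top2a*, the most abundant of the cycling markers, was itself at 115 CPM in control ECs and 243 CPM in CKO ECs, and none of the 5 was at 0. The *Id1* ratio without cycling markers was 0.595 (0.564 to 0.628). With a cycling marker it was 0.684 (0.623 to 0.752), above the interval of the ratio over all EC nuclei. The latter setting is not among the alternatives tallied below.

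Counted per nucleus, an *Id1* UMI was found in 63.3% of control EC nuclei and 51.8% of CKO EC nuclei. An *Id3* UMI was found in 58.6% and 53.8%. The shares were 35.3% and 22.8% for *Id1* and 28.7% and 22.9% for *Id3* after thinning each nucleus to 500 UMIs, so the order held at equal depth. In neuronal cluster Glut_0, a type that should lack both genes, 0 of 2112 control nuclei and 0 of 3102 CKO nuclei had an *Id1* or *Id3* UMI. The exact intervals of these counts of 0 reach 0.175% and 0.119%, at median depths of 5004 and 2314 UMIs against 1347 and 1491 in ECs. For *Id2*, 8.36% of control and 6.49% of CKO EC nuclei had a UMI, beside 7.43% and 0.484% in Glut_0. After thinning, the EC shares of *Id2* were 1.41% and 1.54%.

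*Id1* and *Id3* UMIs tended to fall in the same EC nuclei. At 500 UMIs per nucleus, 42.1% (38.1 to 46.2) of control nuclei with an *Id3* UMI had an *Id1* UMI, against 32.5% (30.1 to 35.0) of those without. The shares in CKO were 29.9% (26.2 to 33.7) and 20.7% (19.0 to 22.6). Nuclei of a library are not replicates, and these intervals are exact binomial intervals for counting error.

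The other genes of the pathway were read in ECs from lists of 37 genes, of which 35 were in the brain table and 29 had at least 20 UMIs over both EC groups. Of these 29, 1 was at least 2-fold higher in CKO and 2 at least 2-fold lower, where 11.2% and 5.79% of all 13154 genes with that many UMIs were. Ratio intervals lay above 1 for 12 genes and below 1 for 9, where those of 36.0% and 19.0% of all genes did. The median log2 ratio of the listed genes was 0.07, against 0.14 over all genes. With TMM scaling the intervals of 10 listed genes lay above 1 and of 10 below, beside 29.0% and 24.6% of all genes. The lists were chosen by role and differed in how their members stood.

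Of the BMP ligands, 5 were counted. *Bmp2* was at 6.21 CPM in control and 15.6 CPM in CKO, a ratio of 2.52 (1.71 to 3.78), and *Bmp4* was at 5.69 and 1.75 CPM, a ratio of 0.308 (0.145 to 0.612) from 33 and 12 UMIs. Ratio intervals of *Bmp5*, *Bmp6* and *Bmp7* included 1. *Gdf2* and *Bmp10*, the circulating ligands of ALK1, are not in the brain table.

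Among the 8 receptors, 4 had ratio intervals below 1 and 3 above, where those of 19.0% and 36.0% of all genes were. The 4 receptors below 1 included those that ECs use most for BMP9 and BMP10. *Eng* was at 775 and 515 CPM, a ratio of 0.665 (0.636 to 0.695), *Bmpr2* at 897 and 607 CPM, a ratio of 0.676 (0.649 to 0.704), and *Acvrl1* at 245 and 182 CPM, a ratio of 0.741 (0.686 to 0.800). The receptors above 1 were the activin receptor genes *Acvr1* (1.27), *Acvr2a* (1.65) and *Acvr2b* (1.42). *Tgfbr2*, which codes for the partner of the targeted receptor, was at 396 and 742 CPM, a ratio of 1.87 (1.78 to 1.97).

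Of the SMADs that carry the signal, *Smad1* was at 158 and 254 CPM, a ratio of 1.61 (1.48 to 1.75), *Smad5* was at 148 and 149 CPM, and the shared partner *Smad4* had a ratio of 1.15 (1.06 to 1.26), or 1.07 (0.984 to 1.17) with TMM. Of 4 inhibitors, 3 had ratio intervals below 1 and *Smurf1* one above, which included 1 with TMM. The inhibitory SMAD genes were the lowest of them. *Smad7* was at 200 CPM in control and 80.0 CPM in CKO, a ratio of 0.400 (0.361 to 0.443), and *Smad6* was at 79.3 and 48.3 CPM, a ratio of 0.609 (0.527 to 0.703). Among other genes that BMP induces in ECs, *Hey2* had a ratio of 0.660 (0.528 to 0.825), *Hey1* of 0.970 (0.859 to 1.09) and *Tmem100* of 1.30 (1.13 to 1.51). *Atoh8*, with 26 UMIs over both libraries, had a ratio of 1.15 (0.496 to 2.78), and the inhibitor *Bambi* one of 0.854 (0.733 to 0.995). *Id1*, *Id3*, *Smad6*, *Smad7* and *Hey2* were thus lower, while *Hey1*, *Atoh8* and *Tmem100*, listed with *Hey2* as induced by BMP, were not. *Id2* was lower as well (0.691), but not after thinning. This grouping crosses the lists and was not tested, nor was whether *Smad7* follows BMP or TGF-beta signaling here. Of the EC markers in the same nuclei, 4 were also lower, *Flt1* (0.689), *Erg* (0.746), *Cldn5* (0.750) and *Pecam1* (0.847), and *Cdh5* was higher (interval 1.44 to 1.56). Of all genes with at least 20 UMIs in ECs, 19.0% had a ratio interval below 1. Whether BMP targets differ from other genes of ECs was not tested.

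The E protein genes, whose products Id proteins bind, were the 1 list in which every ratio interval lay above 1 (3 of 3 genes). Of all genes with at least 20 UMIs in ECs, 36.0% had such an interval, or 29.0% with TMM scaling. *Tcf3* was at 130 and 214 CPM, a ratio of 1.65 (1.51 to 1.80), *Tcf12* at 729 and 975 CPM, a ratio of 1.34 (1.29 to 1.39), and *Tcf4* at 2721 and 3102 CPM, a ratio of 1.14 (1.12 to 1.16). With TMM scaling, which takes out most of the higher median of all EC genes, the ratios were 1.53 (1.40 to 1.68), 1.25 (1.20 to 1.29) and 1.06 (1.04 to 1.08), so *Tcf4* was close to the typical gene. *Id1* and *Id3* stood below the median of all genes and *Tcf3* and *Tcf12* above it, in a single library per genotype.

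Over all brain labels, 22 pairs of an Id gene and a cell type had at least 50 UMIs over both libraries. Of these, 1 was at least 2-fold higher in CKO, where 3.11% of all 108227 gene and cell type pairs were, and 3 were at least 2-fold lower, where 6.74% of all pairs were. The median log2 ratio of the 22 pairs was −0.26, against 0.00 over all pairs. With a minimum of 20 UMIs the count was 10 of 34 pairs (3 higher and 7 lower), where 5.96% of all 153470 pairs were higher and 10.6% lower.

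The pairs past 2-fold lay outside ECs. In choroid plexus cluster CP_8, *Id3* was at 88.0 CPM in control and 16.8 in CKO, a ratio of 0.191 (0.0969 to 0.340), and *Id1* was at 23.8 and 4.19 CPM, a ratio of 0.176 (0.0353 to 0.544) from 54 and 3 UMIs. The ratio of *Id3* was 0.288 in nuclei with at least 1000 UMIs and 0.0847 as a mean over nuclei. After thinning, which left 40 and 3 UMIs, it was 0.152 (0.0301 to 0.478). That of *Id1* was 0.271 in nuclei with at least 1000 UMIs and 0.0572 as a mean over nuclei. After thinning, which left 7 and 1 UMIs, it was 0.290 (0.00644 to 2.26). *Id4* in CP_8 had a ratio of 0.760 (0.503 to 1.12) and *Id2* one of 0.888 (0.552 to 1.38), and *Id2* turned to 1.23 (0.741 to 1.96) with nuclei of at least 1000 UMIs and 1.42 (0.459 to 4.14) after thinning. The median depth of these nuclei was 1721 UMIs in control and 666 in CKO. Their *Ttr*, the main transcript of choroid plexus epithelium, was at 40364 and 38980 CPM, and the EC list summed to 86.2 and 61.5 CPM and the pericyte list to 107 and 81.1 CPM. Beyond the settings above, the part of depth or of these markers in the difference was not tested.

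*Id2* in nuclei labeled glia was at 66.4 CPM in control and 180 CPM in CKO, a ratio of 2.72 (2.04 to 3.61). The size of this difference depended strongly on the nuclei used, at 1.55 (1.07 to 2.23) with nuclei of at least 1000 UMIs, 4.61 (2.59 to 8.25) after thinning and 6.10 as a mean over nuclei. In the same nuclei the oligodendrocyte list was at 137 CPM in control and 292 in CKO, the OPC list at 401 and 154 and the EC list at 651 and 379, with median depths of 879 and 582 UMIs. Whether the label holds the same cells in both libraries was not tested. *Id2* in neuronal cluster Glut_0 was at 17.2 CPM (200 UMIs) in control and 1.81 CPM (15 UMIs) in CKO, a ratio of 0.105 (0.0578 to 0.178), or 0.0463 as a mean over nuclei. In astrocytes, *Id2* was at 457 and 564 CPM, a ratio of 1.23 (1.07 to 1.42), but 0.767 (0.579 to 1.00) in nuclei with at least 1000 UMIs. The median depth of astrocytes was 1150.5 UMIs in control and 578.5 in CKO. TMM scaling moved the median log2 ratio of all genes by −0.24 in astrocytes, −0.22 in glia, −0.20 in Glut_20, −0.17 in vSMCs and −0.12 in CP_8. Unlike in ECs, this took the median away from 0, from −0.02 to −0.26 in astrocytes and from 0.05 to −0.16 in glia. *Id2* in astrocytes was at 1.05 (0.905 to 1.20) with TMM, and *Id2* in glia at 2.34.

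In nuclei labeled vSMCs, which also held the pericyte and EC markers given above, *Id3* was at 562 CPM in control (449 nuclei) and 317 CPM (252 to 394) in CKO (103 nuclei), a ratio of 0.564 (0.444 to 0.708). *Id1* was at 468 and 341 CPM, a ratio of 0.728 (0.576 to 0.909), but this direction turned to 1.12 as a mean over nuclei and 1.11 (0.655 to 1.80) after thinning. *Id2* had a ratio of 0.867 (0.575 to 1.27), and 1.29 as a mean over nuclei and 1.18 after thinning. The fibroblast list in these nuclei summed to 1521 CPM in control and 3035 CPM in CKO, with *Col1a2* the most abundant and none of its 5 genes at 0, and its part in the Id values was not tested.

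*Id4* was close to its control level in CP_6 and astrocytes, where it is highest. In CP_6 it was at 507 CPM in control and 519 (481 to 558) in CKO, a ratio of 1.02 (0.937 to 1.12), and in astrocytes it was at 206 and 241 CPM, a ratio of 1.17 (0.938 to 1.45). In Glut_20 the ratio was 1.74 (1.10 to 2.70), and 2.27 as a mean over nuclei and 1.15 (0.453 to 2.73) after thinning.

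**Figure D2:**
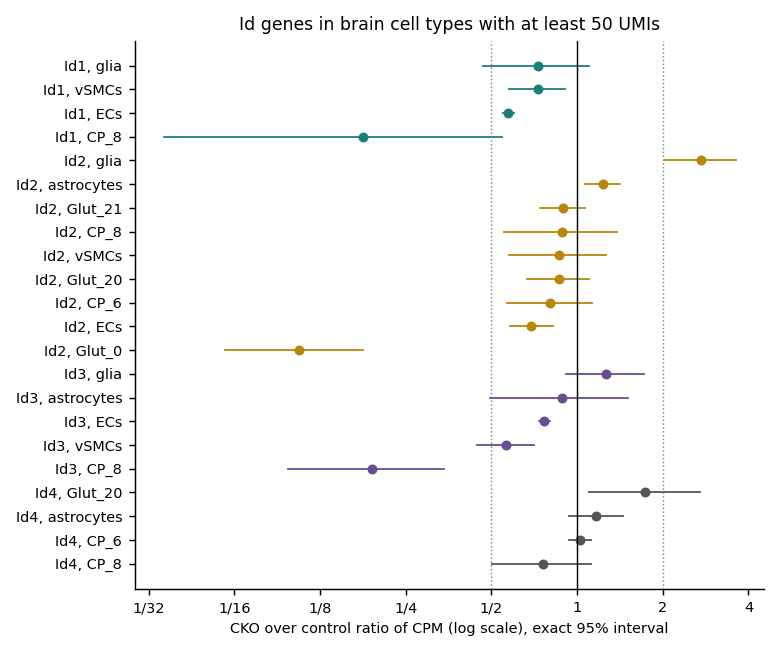
Ratio of CKO over control CPM (horizontal log axis) with its exact 95% interval for the 22 pairs of an Id gene and a brain label (vertical axis) with at least 50 UMIs, colored by gene, with a solid line at 1 and dotted lines at 2-fold. *Id1* in ECs stands at 0.572 and *Id3* at 0.768 with narrow intervals, *Id1* and *Id3* in CP_8 and *Id2* in Glut_0 lie past 2-fold to the left and *Id2* in glia past 2-fold to the right.

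The retina libraries have no EC label, so Id genes were read there in glia, neurons and immune cells. The question was whether targeting *Tgfbr1* in ECs goes with a change of Id genes in other retinal cells. Retinal astrocytes had the highest level of all 11 labels for each of the 4 genes, in the control and by the median of the CKO libraries. In the control this rests on 12 nuclei, with 2 UMIs of *Id1* (7.74 to 231 CPM) and 4 of *Id2* (34.8 to 327 CPM). For *Id1*, *Id2* and *Id3* the control intervals of astrocytes overlapped with those of Müller glia. The astrocyte list (*Gfap*, *Pax2*, *Pdgfra*, *Slc1a3*) was highest in these nuclei for 4 of 4 genes. Müller glia came second for *Id1* and *Id3*, and GABAergic amacrine cells for *Id4*.

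In astrocytes *Id3* was at 224 CPM in the control (90.0 to 461, from 7 UMIs in 12 nuclei) and 116 (replicate 10), 281 and 429 (replicate 7) as the lowest, median and highest of 10 CKO libraries. *Id4* was at 224 CPM in the control and at 112, 229 and 538 in CKO. *Id2* was at 128 CPM in the control and 43.6, 78.7 and 140 in CKO, and *Id1* at 64.0 in the control and 0, 56.8 and 113 in CKO. The control lay within the CKO range for each of the 4 genes. With 12 control nuclei this type was not tested.

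The Müller glia list summed to 2881 CPM in control and 2948 CPM in CKO nuclei labeled Müller glia, second to astrocytes, with none of its 5 genes at 0. In Müller glia the control stood above the 10 CKO libraries for *Id3* and within their range for the other 3 genes. *Id3* was at 87.4 CPM in the control (73.1 to 104, 402 nuclei) and at 27.0 (replicate 11), 50.1 and 77.5 (replicate 10) as the lowest, median and highest of 10 CKO libraries. Replicate 4, with 2 Müller glia nuclei, was left out. The control was the highest library, with the CKO libraries of its own batch at 27.9 to 65.7 CPM. Of the 11687 genes tested in Müller glia, 5.34% had the control above every CKO library and 9.53% had it below, so 1 of 4 Id genes above and 0 of 4 below is a small count. The two-sided exact permutation test over libraries gave p = 0.0909, the smallest that 1 library against 10 can give. In edgeR, with the authors' batch as a covariate, the log2 fold change of *Id3* was −0.76 (SE 0.48, p = 0.136, adjusted p = 0.848). The unadjusted p was 0.0150 with no filter and 0.0489 with batch 1 alone, with adjusted p of 0.587 and 0.693.

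*Id1* was at 23.2 CPM in control Müller glia (16.1 to 32.2) and 7.97 (replicate 3), 20.5 and 36.7 (replicate 5) in CKO, with 6 CKO libraries below the control and 4 above. Its log2 fold change was −0.59 (SE 0.47, adjusted p = 0.921) with batch as the covariate and 0.045 with the kit as the covariate. *Id2* was at 74.8 CPM in the control and 27.7 (replicate 8), 49.0 and 77.7 (replicate 3) in CKO, where 9 of 10 libraries were below the control, with a log2 fold change of −0.24 (SE 0.43, adjusted p = 1). *Id4* was at 8.60 CPM in the control and 3.08 (replicate 11), 7.18 and 41.8 (replicate 3) in CKO. Its log2 fold change of 1.23 (SE 0.82, adjusted p = 0.874) became 0.53 without replicate 3 and 0.27 with no covariate, and the control was above 7 of the 10 CKO libraries.

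**Figure D3:**
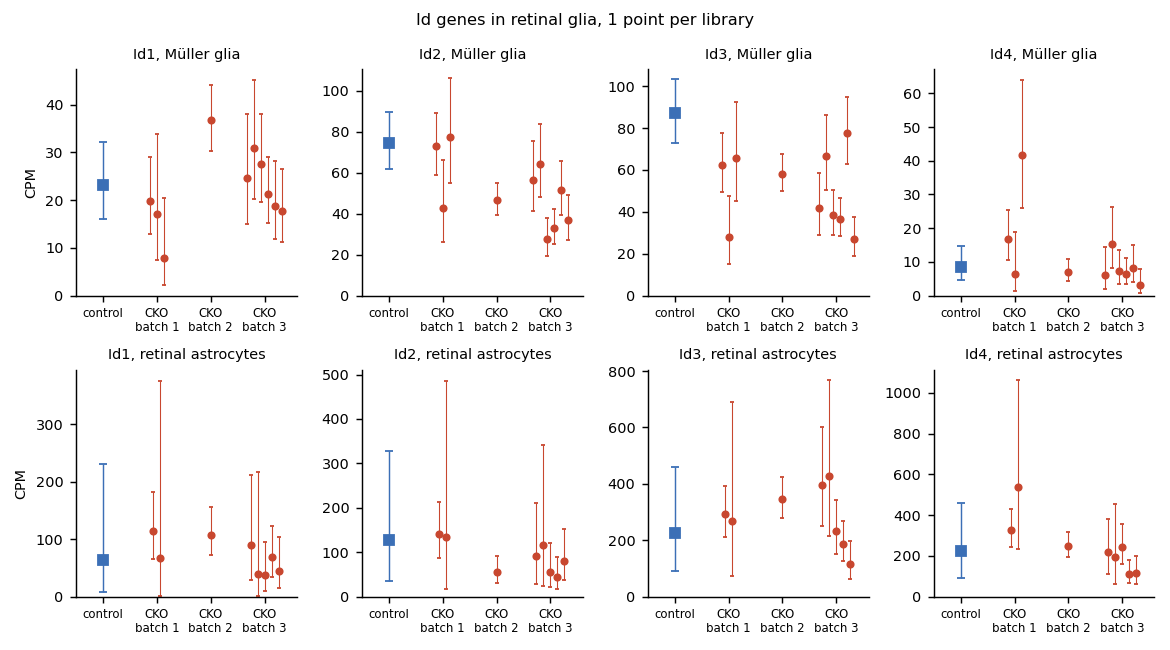
Level of each Id gene in CPM (vertical axes) in Müller glia (top) and retinal astrocytes (bottom) of the control (blue square) and the CKO libraries (red circles, by the authors' batch, horizontal axes), with exact 95% Poisson intervals and only libraries with at least 10 nuclei of the type. For *Id3* in Müller glia the control, at 87.4 CPM, lies above the CKO points, which range from 27.0 to 77.5; in the other panels it lies among them.

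Over 10 retinal cell types, 15 pairs of an Id gene and a type had enough UMIs to test, and edgeR called 0 at an adjusted p under 0.05, where it called 0.00514% of all 116711 pairs. At an unadjusted p under 0.05 there was 1 of 15, where 2.96% of all pairs were, and DESeq2 called 0 with 0 at an unadjusted p under 0.05, where 2.06% of all pairs were. The 1 pair was *Id2* in immune cells, at 8.74 CPM in the control (1 UMI in 29 nuclei) and 15.6 (replicate 7), 56.3 and 136 (replicate 6) in 10 CKO libraries. The paper reports that immune cells other than microglia came only from CKO retinas, and the leading gene of the immune marker list was *P2ry12*, a microglial gene, in the control and *Ptprc* in CKO. The label thus holds a different mix of cells in each genotype, and the comparison is not one within a cell type. All 10 were above the control, with a log2 fold change of 2.97 (SE 1.40, p = 0.0466, adjusted p = 1) and an exact permutation p of 0.273. This count fell to 0 without any 1 of replicates 1, 3, 4, 5, 8, 9 and 11, and with no covariate, and rose to 3 of 40 pairs with no filter, where 2.98% of all 246134 pairs were. The interval of the single control UMI reaches 48.7 CPM and overlaps with those of 8 of the 10 CKO libraries. How many other genes of immune cells have the control below every CKO library was not counted.

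Among retinal neurons, *Id4* in GABAergic amacrine cells was at 61.7 CPM in the control (55.3 to 68.5, 342 UMIs) and 41.0 (replicate 2), 66.8 and 83.6 (replicate 7) in CKO. The control lay inside this range, and the log2 fold change was 0.03 (SE 0.34, adjusted p = 1). These cells gave 77.0% of the *Id4* UMIs of the control retina and 67.5% of those of the CKO retinas. *Id4* in retinal ganglion cells had a control interval of 9.71 to 19.6 CPM, with a CKO median of 18.5, and *Id4* in horizontal cells was at 16.0 CPM with a CKO median of 12.4. Rods, cones and bipolar cells had CKO medians of at most 2.39 CPM for each of the 4 genes. The share of all genes with the control below every CKO library was counted only in Müller glia, at 9.53%. *Id4* in cone bipolar cells was at 0.945 CPM in the control (5 UMIs), below all 10 CKO libraries (1.23 to 6.40). Its log2 fold change in edgeR was 0.83 (SE 0.94, p = 0.396).

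The pathway lists were tested in the same retinal types. Of 190 pairs of a listed gene and a type, edgeR called 0 in either direction, with 6 at an unadjusted p under 0.05, where 2.96% of all pairs were. DESeq2 called 0, with 5 at an unadjusted p under 0.05, where 2.06% of all pairs were. The genes below are given as values only. In Müller glia, 2 of 22 listed genes were among the 6. They were *Smad6*, an inhibitor and target of BMP signaling, with a log2 fold change of −1.20 (SE 0.30, p = 0.00123, adjusted p = 0.404), and the receptor gene *Acvr2b*, at 1.25 (SE 0.41, p = 0.00786, adjusted p = 0.558). The median log2 fold change of the 22 listed genes was 0.07, against 0.00 over all genes tested in Müller glia.

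The genes most like each Id gene across the brain were found by the Pearson correlation of log2(CPM + 1) over the 20 labels with at least 100000 UMIs in the control library, among 9773 genes. The labels share a library and differ in depth, so these are descriptions. For *Id1* they were *Ucp2* (r = 0.984, and 0.781 in the CKO library), *Lsr* (0.980 and 0.987) and *Fcgrt* (0.979 and 0.709). For *Id3* they were *Id1* itself (0.968 and 0.912), *Hadh* (0.967 and 0.906) and *Gm49394* (0.964 and 0.821). *Id1* was thus the gene closest to *Id3*, although *Id3* was not among the 3 closest to *Id1*.

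For *Id2* the closest genes were *Aldoc* (r = 0.899, and 0.918 in CKO), *Ckb* (0.870 and 0.862) and *Htra1* (0.860 and 0.750). For *Id4* they were *Dusp18* (0.923 and 0.776), *Tmem47* (0.922 and 0.911) and *Pla2g7* (0.919 and 0.906). Between members, r was 0.680 for *Id2* with *Id4*, 0.648 for *Id2* with *Id3*, 0.563 for *Id1* with *Id2*, 0.453 for *Id3* with *Id4* and 0.323 for *Id1* with *Id4* in the control library. *Id1* with *Id3* was the closest pair of members, and *Id1* with *Id4* the least alike.

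The 4 genes lie on 4 chromosomes. In GRCm39 *Id1* is at chr2:152566218-152579544 on the plus strand, *Id2* at chr12:25143798-25147282 on the minus strand, *Id3* at chr4:135870808-135873066 on the plus strand and *Id4* at chr13:48414558-48419502 on the plus strand. Each is overlapped by at least 1 long noncoding RNA gene on the opposite strand, of which *Gm36287* over *Id2* and *Gm49291* over *Id4* have counts of their own in both tables.

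Promoters were read for the members in the RefSeq promoter table, which are 3 of 4 (GRCm38.p6, 250 bases before to 50 after the gene start). They were searched on both strands for GGCGCC, a core of the GC-rich SMAD1 and SMAD5 sites described in Id promoters, and for CAGAC, the SMAD-binding element. Of all 32851 promoters in the table, 11.9% hold GGCGCC and 49.6% hold CAGAC. The promoter of *Id2* holds 1 GGCGCC and that of *Id4* holds 1, while that of *Id3* holds 2 CAGAC, 1 on each strand. Their GC content is 63.3% for *Id2*, 60.0% for *Id3* and 73.3% for *Id4*, against a median of 52.7% over all promoters. The sequences are given 5′ to 3′ on the strand of the gene with the matches in capitals, *Id2* from chr12:25096043-25096342 (minus strand), *Id3* from chr4:136143572-136143871 (plus strand) and *Id4* from chr13:48260866-48261165 (plus strand). A match is a description of these letters, and no match says only that they are not in this window.
Id2: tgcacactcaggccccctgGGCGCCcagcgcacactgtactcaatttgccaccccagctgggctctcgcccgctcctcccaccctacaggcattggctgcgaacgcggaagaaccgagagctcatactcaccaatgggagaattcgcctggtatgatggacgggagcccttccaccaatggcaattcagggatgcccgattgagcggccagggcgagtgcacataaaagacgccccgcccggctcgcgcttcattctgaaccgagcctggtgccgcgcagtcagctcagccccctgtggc
Id3: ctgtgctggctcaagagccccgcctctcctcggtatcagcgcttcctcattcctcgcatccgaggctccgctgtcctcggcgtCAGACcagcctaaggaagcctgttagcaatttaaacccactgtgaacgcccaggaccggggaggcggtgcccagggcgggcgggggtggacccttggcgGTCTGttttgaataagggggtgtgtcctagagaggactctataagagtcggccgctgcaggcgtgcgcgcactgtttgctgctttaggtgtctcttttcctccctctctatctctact
Id4: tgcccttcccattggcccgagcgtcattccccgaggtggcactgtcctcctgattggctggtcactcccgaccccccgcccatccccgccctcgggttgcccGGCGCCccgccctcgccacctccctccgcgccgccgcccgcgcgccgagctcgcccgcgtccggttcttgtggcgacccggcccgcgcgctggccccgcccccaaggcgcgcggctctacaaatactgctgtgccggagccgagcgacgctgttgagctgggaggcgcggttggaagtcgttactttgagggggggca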

How the data were processed

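Nuclei of whole retinas and of brain vascular fragments were profiled with PIPseq. The deposited values are counts of whole UMIs in each nucleus. For these the authors ran PIPseeker 3.3.0 on GRCm39, CellBender 0.3.2 and SOLO, and took out mixed nuclei by manual curation, with further curation of CKO retina replicates 4 and 5. The processing notes of the labels name mm10 and Seurat. The other columns used are the authors' text labels of cell type, batch and kit, and their UMAP coordinates were not used.

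UMIs were summed per label and library. For each retinal type with at least 20 nuclei in the control and in 3 or more CKO libraries, genes with at least 10 UMIs in at least 3 libraries were tested with edgeR 4.0.16 (TMM, quasi-likelihood, batch as a covariate, Benjamini-Hochberg over all genes of the type, threshold 0.05) in R 4.3.3, with DESeq2 1.42.0 as an alternative. Because the control has 1 library, its spread is taken from the CKO libraries. In brain, no test was made, and ratios have exact conditional binomial intervals. Intervals are at 95% and cover counting error only. The edgeR fit and the ratios were tested on simulated data.

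All 4 members were counted in every type, but not every value is given. Of the pathway lists every gene was counted, and those given singly had at least 20 UMIs in ECs or an unadjusted p under 0.05 in Müller glia, the latter named after their values were seen. Members and lists were chosen with earlier results of these data known. Alternatives covered normalization, filter, covariate, libraries, depth, weighting, thinning to 500 UMIs, and pericyte, vSMC and cycling markers. Other steps used Python 3.11.15, numpy 2.4.6, pandas 2.3.3, scipy 1.17.1 and matplotlib 3.10.9.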

Additional observations from a re-analysis of the deposited data

Results flagged for a closer look

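*Id4* in Müller glia of CKO retina replicate 3 was at 41.8 CPM (21 UMIs), far above the next library at 16.7 CPM, while the lowest of the 10 CKO libraries was at 3.08 CPM. A sample this far from the others was found in 1 of 13 groups of CKO libraries examined, and chance gives about 1 in 20. Groups of more than 10 libraries were not examined, which leaves out retinal ganglion cells, with 11. There *Id2* was at 55.3 CPM in CKO replicate 4, against a CKO median of 5.09. That library held 104 nuclei and 5 *Id2* UMIs in all.

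*Id2* differed in direction between brain cell types. Its ratio of CKO over control was 1.23 in astrocytes and 2.72 in nuclei labeled glia, and below 1 in ECs (0.691) and in Glut_0 (0.105). The difference between the types was not tested, with 1 library per genotype. The direction turned in astrocytes with nuclei of at least 1000 UMIs (0.767) and in ECs after thinning (1.13).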

How the results depend on the processing

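The 0 calls of Id genes in retinal types stayed at 0 under all 19 alternatives, although those that leave libraries out test fewer genes. With batch as the covariate, fold changes rest on the libraries of batch 1, which holds the control. Fits that leave out only CKO libraries of other batches therefore could not test their direction. Of 75 alternative fold changes in Müller glia, 8 repeat another fit because replicate 4 is not in it. Of the other 67, 66 kept their direction, a count that includes such fits. None had an adjusted p under 0.05, and *Id4* by DESeq2 had no adjusted p. The exception in direction was *Id1* with the kit as the covariate (log2 0.045, p = 0.933, where adjusted p ranged from 0.820 to 1.00 over its alternatives). Leaving out each CKO library in turn gave log2 fold changes of −0.95 to −0.35 for *Id1*, −0.36 to −0.06 for *Id2*, −0.95 to −0.51 for *Id3* and 0.53 to 1.58 for *Id4*. Both ends of each range came from leaving out a library of batch 1. Without a CKO library of another batch, *Id3* stayed at −0.759 to −0.750, against −0.756 in the main fit. Batch 1 alone gave no value for *Id1*, which had too few UMIs.

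In brain ECs, 19 of 25 alternative ratios lay within the counting interval of the reported ratio. TMM scaling gave 0.533 for *Id1* and 0.715 for *Id3*. Nuclei without a pericyte marker gave 0.387 for *Id1* and 0.842 for *Id3*. *Id2* was at 0.882 as a mean over nuclei and 1.13 after thinning. The setting without a vSMC marker, TMM for listed genes and the 4 settings for other brain types were chosen after seeing the data. In other types, 55 of 75 ratios lay within the interval, and 15 crossed 1. Most of these had a reported interval that included 1, such as *Id1* in glia (1.11 as a mean over nuclei, 1.79 after thinning), *Id3* in astrocytes (1.71 with nuclei of at least 1000 UMIs) and *Id2* in CP_6 (1.12 as a mean over nuclei). The reported interval had excluded 1 for 3 of them, *Id1* in vSMCs (1.12 as a mean over nuclei, 1.11 after thinning) and *Id2* in astrocytes (0.767 with nuclei of at least 1000 UMIs). These tallies leave out 4 alternatives with fewer than 10 UMIs. The count of brain pairs past 2-fold was 10 of 34 with a minimum of 20 UMIs, where the share of all pairs rose as well, from 9.85% to 16.6%. The cause of these differences was not tested. Depth limits *Id4* in ECs and each Id gene in pericytes, whose CKO nuclei held no Id UMI.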
